A study of Mus musculus with 4 samples.

Results

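The cells described here are mesenchymal cells of the E16.5 mouse lung (E counts embryonic days), split into cycling and non-cycling cells by their own transcripts. They came from 1 sample of C57BL/6 strain, described by the submitters as 1 lung, with the alleles αSMA-GFP, Tbx4-Cre and Rosa26-tdTomato, from which cells carrying both the tdTomato mark of the Tbx4 lineage and the αSMA-GFP signal were sorted and read as single cells. αSMA is the smooth muscle actin encoded by Acta2, and Tbx4-Cre marks lung mesenchyme, so both arms share the reporter alleles and the sort. The other 3 libraries of the series hold live cells of E17.5 lungs labelled WT, of the same strain, and serve below as separate samples, whose cells were divided by the same rule. In the sort 2353 of the cells kept had UMIs of Xist and of no Y-linked gene, 333 the reverse, and 121 both, and whether the sample pools embryos was not settled here. Of 3085 sorted cells, 166 with a unique molecular identifier (UMI, 1 counted mRNA molecule) of Epcam (91 cells) or Pecam1 (82 cells), the epithelial and endothelial surface markers, were left out. Cells with 2 or more UMIs of Mki67 and Top2a together were called cycling, and cells with 0 non-cycling. That gave 726 cycling cells, 24.9% of the 2919 kept and 23.5% of all sorted cells (exact 95% interval 22.0 to 25.1%), and 1875 non-cycling cells, 64.2% of those kept. The remaining 318 cells had 1 UMI and entered neither arm. The members were thus chosen by their measured UMIs of these 4 genes, and those values are given as a description. The whole series holds 10564 cells. Both arms carried mesenchymal transcripts, such as the collagen gene Col1a2 at 665 CPM in depth-matched cycling and 880 CPM in non-cycling cells, where CPM is a gene's UMIs per 1000000 UMIs of a cell.

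Lung mesenchyme at this stage, between branching of the airways and formation of the saccules, still divides while its contractile and matrix-forming cells mature. Mki67 encodes a protein that coats chromosomes in mitosis and Top2a the topoisomerase that disentangles replicated DNA. Their mRNAs build up from S phase to mitosis and are low in early G1 and in resting cells, so a cell without either transcript can still be in G1. Pericytes, which wrap capillaries, need the receptor Pdgfrb for recruitment, and their identity genes in mouse lung include Higd1b, Cox4i2, Ndufa4l2 and Kcnj8. Genes of the later cell cycle share a promoter grammar. At a cell cycle homology region (CHR) element the DREAM complex represses them in resting cells. Many of these promoters also hold CCAAT boxes, which the factor NF-Y binds.

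The promoters of both genes of the rule, of the mitotic kinase gene Plk1 and of Diaph3, a formin gene that gave the highest ratio of cycling over non-cycling cells outside the cell cycle lists, are printed to show that grammar. Each runs from 250 bases before to 50 bases after the RefSeq start site (GRCm38.p6), on the gene's strand. Capitals mark the CHR letters TTTGAA and the CCAAT box, each read on both strands (TTCAAA and ATTGG on the other strand). The windows lie at chr7:135716330-135716629 on the minus strand for Mki67, chr11:99024140-99024439 on the minus strand for Top2a, chr7:122159185-122159484 on the plus strand for Plk1 and chr14:87141175-87141474 on the minus strand for Diaph3.
Mki67: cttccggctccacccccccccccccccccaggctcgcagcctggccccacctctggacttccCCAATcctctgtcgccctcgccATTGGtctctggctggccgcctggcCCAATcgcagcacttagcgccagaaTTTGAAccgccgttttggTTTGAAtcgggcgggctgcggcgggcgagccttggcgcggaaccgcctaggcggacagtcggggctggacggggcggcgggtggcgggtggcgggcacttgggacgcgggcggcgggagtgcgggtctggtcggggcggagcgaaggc
Top2a: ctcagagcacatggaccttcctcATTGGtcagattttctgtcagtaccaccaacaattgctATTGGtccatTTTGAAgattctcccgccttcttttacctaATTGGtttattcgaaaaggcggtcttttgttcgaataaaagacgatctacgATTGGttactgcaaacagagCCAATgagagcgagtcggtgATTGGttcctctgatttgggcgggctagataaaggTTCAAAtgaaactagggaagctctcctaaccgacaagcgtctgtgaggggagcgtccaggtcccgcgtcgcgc
Plk1: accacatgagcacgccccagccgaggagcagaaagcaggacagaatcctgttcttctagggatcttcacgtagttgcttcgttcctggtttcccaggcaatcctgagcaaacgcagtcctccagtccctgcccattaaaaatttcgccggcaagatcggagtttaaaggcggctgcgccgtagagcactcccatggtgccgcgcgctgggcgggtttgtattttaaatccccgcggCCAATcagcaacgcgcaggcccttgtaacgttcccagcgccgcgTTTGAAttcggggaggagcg
Diaph3: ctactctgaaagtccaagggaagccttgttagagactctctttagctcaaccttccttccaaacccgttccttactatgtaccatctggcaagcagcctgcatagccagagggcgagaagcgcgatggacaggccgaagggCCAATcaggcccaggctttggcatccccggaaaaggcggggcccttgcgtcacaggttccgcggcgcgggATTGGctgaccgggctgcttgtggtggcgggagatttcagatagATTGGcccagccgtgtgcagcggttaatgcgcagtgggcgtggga
The Mki67 window held 2 CHR matches and 3 CCAAT boxes, and that of Top2a 2 and 6. The Plk1 window held 1 of each, whereas that of Diaph3 held 3 CCAAT boxes and 0 CHR letters.

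Over all 32851 promoters of the table, 17.9% held the CHR letters and 37.4% a CCAAT box. Of the 178 promoters of the G2 and M phase list, which belong to 160 genes, 49.4% held the CHR letters and 64.6% a CCAAT box. Of 109 S phase list promoters, 14.7% held the CHR letters, while 26.6% held an element of the kind bound by E2F factors (TTTCCCGC or TTTGGCGC, on either strand), against 1.56% of all promoters. CArG boxes, the element through which serum response factor drives contractile genes, were found in 27.6% of the 29 contractile list promoters, those of 7 of 24 genes, and in 1.63% of all promoters. A CArG box can hold CCAAT letters, and CHR and CCAAT matches can overlap. Counted by gene, 23.0% of the 113 genes with an entry that were higher in cycling mesenchyme held the CHR letters in a promoter, against 12.8% of all genes compared with an entry. A match is a description of letters in a window, and no binding was measured. Several contractile genes named below, Tagln, Actg2 and Myh11 among them, had no entry.

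The split by 2 genes ordered the cells along the rest of the cell cycle program. When each cell was thinned to 5000 UMIs, the median cycling cell held 46 UMIs of the S phase list and 155.5 UMIs of the G2 and M phase list without Mki67 and Top2a, against 13 and 41 UMIs in the median non-cycling cell. Of thinned non-cycling cells, 1.56% lay above the cycling median for the S phase list and 0.539% for the G2 and M phase list. Just outside the threshold, cells with 1 UMI held a median of 16 and 51.5 UMIs of these lists. Just inside it, the 120 cells with exactly 2 UMIs held 23 and 85 UMIs. Cells with 20 or more UMIs of the rule genes, 53 in number, reached 227 UMIs of the G2 and M phase list and 37 UMIs of the S phase list, whose highest median, 55 UMIs, was in the cells with 5 to 9. The rule and the lists read the same cells, so these values describe the split and test nothing.

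**Figure D1:**
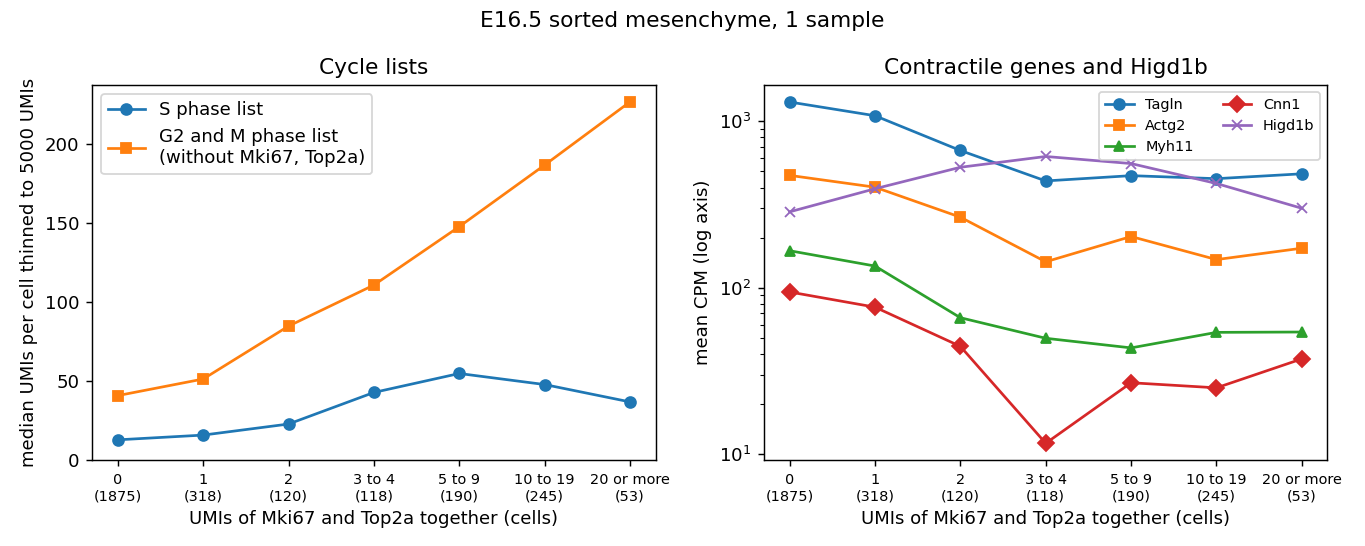
Cells of the E16.5 sort by the number of UMIs of Mki67 and Top2a together (x axis, cells in brackets). The left panel gives the median UMIs of the S and of the G2 and M phase lists per cell thinned to 5000 UMIs, and the right panel the mean CPM (log axis) of 4 contractile genes and of Higd1b. The G2 and M phase list runs from 41 to 227 UMIs, while Tagln runs from 1307 CPM in cells with 0 to 438 CPM in cells with 3 to 4.

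The contractile genes were lower on each rung above 0. Tagln, which encodes the actin-binding protein transgelin, averaged 1307 CPM in cells with 0 UMIs of the rule genes, 1081 CPM with 1, 668 CPM with 2, and between 438 and 484 CPM in every class above. Within pericyte-type cells the step lay lower on the ladder, at 725 CPM with 0 UMIs, 354 CPM with 1 and 299 to 381 CPM in the classes above. Pericyte-type cells with 1 UMI thus lay with the cycling cells of their type, whereas over all cells those with 1 UMI lay near the cells with 0. Depth moved with the ladder too, since the median cell held 10833 UMIs with 0 rule UMIs, 11952.5 with 1 and 24151 with 20 or more.

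Among the cycling cells themselves, cells were ordered by the share of the G2 and M phase list in the sum of both lists. In 4 groups of 180 cells by this share, the S phase cyclin gene Ccne2 was at 115.8 CPM in the earliest and 1.58 CPM in the latest group, and the mitotic cyclin gene Ccnb1 ran from 26.4 to 467 CPM. The replication-dependent histone transcript Hist1h2ap, whose reads may be shared with near-identical histone genes, was at 1132, 1805, 1329 and 414 CPM. Ccnd1, a cyclin of G1, was at 49.1 CPM in the earliest and 6.76 CPM in the latest group. The order was set by cycle genes, so the levels of cycle genes along it describe it and test nothing. Tagln was at 437, 521, 448 and 579 CPM, so its level in the latest group was below the 1307 CPM of the non-cycling cells too. The share of cells in the pericyte-type gate was 72.2% in the earliest group and 57.2% in the latest, and that of the myofibroblast-type gate 11.7% and 24.4%.

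Cycling cells were unevenly spread over the mesenchymal types. Types were read from gates of 4 genes each, of which 3 had to have a UMI. The pericyte-type gate (Higd1b, Cox4i2, Ndufa4l2, Kcnj8) took 1278 cells, of which 462 cycled, or 36.2% (exact 95% interval 33.5 to 38.9%). The Hhip-Ednrb myofibroblast-type gate (Hhip, Ednrb, Wif1, Fgf18) took 940 cells with 140 cycling, or 14.9% (12.7 to 17.3%), and the matrix fibroblast-type gate (Wnt2, Figf, Adh1, Col13a1) took 383 cells with 106 cycling, or 27.7% (23.3 to 32.4%). The interval of the myofibroblast-type gate lay below those of the other two. A gate named after Agtr2, Penk and Dpep1 took 42 cells with 6 cycling, and of 491 cells with no gate 82 cycled, or 16.7%. Counting error is all these intervals cover, since there was 1 sorted sample.

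Read depth differed between the types, and a deeper cell has more chance to show 2 UMIs. The median cell of the pericyte-type gate held 13891.5 UMIs, that of the myofibroblast-type gate 11345.5 and that of the matrix fibroblast-type gate 11139. With Mki67 and Top2a read from cells thinned to 5000 UMIs, at the same threshold, the cycling shares were 20.8% (18.6 to 23.1%), 10.0% (8.17 to 12.1%) and 19.6% (15.7 to 23.9%). The gates were still read from all UMIs. A deeper cell also has more chance to pass a gate, and that part of depth was not tested. The pericyte-type and matrix fibroblast-type intervals then overlapped, and both stayed above that of the myofibroblast-type gate. How many UMIs of Mki67 and Top2a came from free RNA was not tested. Abcc9, a gene that the gates did not use, encodes a subunit of the pericyte potassium channel with Kcnj8. It was at 89.9 CPM in paired non-cycling pericyte-type cells, 3.15 CPM in myofibroblast-type cells and 7.34 CPM in matrix fibroblast-type cells. That gene bears on the pericyte-type name only.

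**Figure D2:**
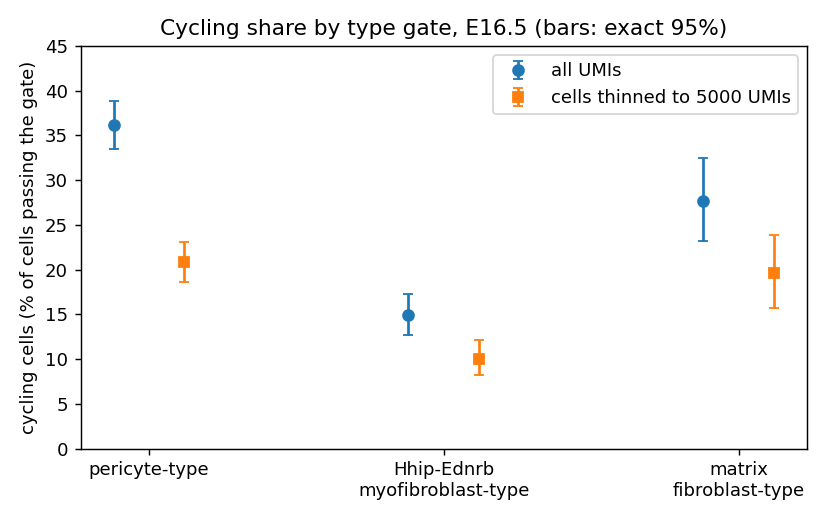
Share of cycling cells (% of the cells passing each gate, y axis) in 3 type gates, with Mki67 and Top2a read from all UMIs and from each cell thinned to 5000 UMIs. The gates were read from all UMIs either way, and bars are exact 95% binomial intervals. The pericyte-type share is 36.2% with all UMIs and 20.8% thinned, and the myofibroblast-type share is lowest either way, at 14.9% and 10.0%.

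Put the other way, 63.6% of the cycling cells but 36.5% of the non-cycling cells passed the pericyte-type gate. The myofibroblast-type gate held 19.3% of cycling and 36.4% of non-cycling cells. These are shares of the whole arms, which differ in depth. Among the 523 depth-matched pairs described below, 57.6% of cycling and 51.6% of non-cycling cells passed the pericyte-type gate. The myofibroblast-type gate took 19.1% and 33.8% of them, and the matrix fibroblast-type gate 14.1% and 9.18%. The paired arms thus still differed in make-up, most in myofibroblast-type cells. Values inside pericyte-type cells are given below for the main gene lists. Other cell types and quality differed between the arms as follows. Simulated doublet scores called 12 cells in each arm, 1.65% of cycling and 0.640% of non-cycling cells, and among the depth-matched pairs described below 3 cycling and 11 non-cycling cells. Erythroid transcripts passed 1% of UMIs in 0 cycling and 7 non-cycling cells, and 2 cells in each arm had a UMI of the leukocyte gene Ptprc. Cells with Xist and no Y-linked UMI made up 78.7% of cycling and 80.9% of non-cycling cells, and cells with the reverse 11.7% of either arm. The E17.5 libraries shared 8, 7 and 13 cell barcodes with the sort.

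To compare the arms at matched depth, each cycling cell was paired with the unused non-cycling cell closest in UMI total, within 1.1 times. In the mesenchyme 523 pairs were found, with medians of 15176 and 14592 UMIs, and the 203 cycling cells without a partner were deeper, with a median of 23333. Ratios are cycling over non-cycling cells, and their 95% intervals come from UMI sums and cover counting error only. A gene was called different at a ratio of 1.5 or more either way, which is a rule of size and no test, among genes outside the cell cycle lists with a mean of 20 CPM or more.

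In the paired mesenchyme, 156 of 5467 genes were higher in cycling cells (2.85%) and 219 were lower (4.01%). The median log2 ratio of these genes was -0.06, because cycle list genes took 7.24% of the cycling cells' UMIs and 3.72% of the non-cycling cells' UMIs. With the ratios divided by their median, 203 genes were higher and 168 lower, so which direction held more genes depended on this scaling. Pericyte-type cells, paired anew, gave 292 pairs, and 126 of 5251 genes were higher (2.40%) and 175 lower (3.33%), with 162 and 123 after division by the median. Of the higher genes, 102 were shared by both comparisons, 65.4% of the mesenchymal and 81.0% of the pericyte-type list, though the comparisons share cells. Of the lower genes 98 were shared, 44.7% and 56.0%.

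Cycle genes set the scale of the contrast. In the mesenchyme, 131 of 139 G2 and M phase list genes were higher by 1.5-fold, with a median log2 ratio of 2.56, and 68 of 83 S phase list genes, with a median of 1.103. In pericyte-type cells the counts were 122 of 131 and 61 of 82. Plk1 was at 80.3 CPM (74.4 to 86.7) in cycling and 2.62 CPM (1.60 to 4.04) in non-cycling mesenchyme. Tk1, the thymidine kinase of DNA synthesis, was at 142 CPM against 11.7 CPM. The gene deposited as 2810417H13Rik, which is Pclaf, encoding a partner of the replication clamp PCNA, was at 1048 CPM against 111 CPM.

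Regulators of entry into the cycle ran both ways. Of 18 G1 cyclin and inhibitor genes in the mesenchyme, Cdk2, Cdkn1b and Ccng2 were higher by 1.5-fold and Ccnd2 and Btg2 lower. Cdk2, the kinase of S phase entry, was at 64.7 CPM (59.2 to 70.6) in cycling and 31.1 CPM (27.3 to 35.3) in non-cycling mesenchyme. Ccnd2, a G1 cyclin, ran the other way, at 269 CPM (258 to 280) against 483 CPM (468 to 499), a ratio of 0.56. Among cycling cells it was at 479 CPM in the earliest of the 4 groups and 214 to 240 CPM in the others. Without pairing on depth its log2 ratio was -0.32 in place of -0.85. In matched cells it was lower in the cycling arm of all 3 types, with ratios of 0.54 in pericyte-type, 0.29 in myofibroblast-type and 0.43 in matrix fibroblast-type cells. The inhibitor gene Cdkn1c, which marks cells leaving the cycle in many embryonic tissues, was at 521 CPM against 620 CPM, a ratio of 0.84 (0.81 to 0.88), and it was at 543 CPM against 541 CPM in myofibroblast-type cells.

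Outside the lists, the highest ratio in cycling mesenchyme was that of Diaph3, a formin of the cell cortex. Diaph3 was at 39.2 CPM (34.9 to 43.8) in cycling and 4.82 CPM (3.34 to 6.73) in non-cycling cells, a ratio of 8.13 (5.69 to 11.96), and its ratio was 7.80 (4.58 to 14.3) in pericyte-type cells. C330027C09Rik, listed by RefSeq as Cip2a, an inhibitor of the phosphatase PP2A, was at 43.7 CPM against 7.78 CPM. Rad18, a ubiquitin ligase of replication past DNA damage, was at 36.5 CPM against 7.27 CPM, and Terf1, a telomere-binding protein gene, at 50.0 CPM against 16.9 CPM. Fxyd6, which encodes a regulator of the sodium pump, was at 102 CPM (94.8 to 109) against 22.7 CPM (19.5 to 26.3), a ratio of 4.47 (3.80 to 5.29), with a median cell at 64.9 CPM against 0.

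Fxyd6 was also higher within each type. Its ratio was 3.49 (2.83 to 4.32) in pericyte-type, 6.95 (4.33 to 11.7) in myofibroblast-type and 3.11 (1.81 to 5.60) in matrix fibroblast-type cells. Along the cycle it was at 101.5 CPM in the earliest group of cycling cells, 162 CPM in the next, then 86.8 CPM and 42.4 CPM. Tcf19, a chromatin reader gene, was at 79.7 CPM against 17.2 CPM in the mesenchyme and 69.2 CPM against 20.9 CPM in pericyte-type cells. Trim59, Cep295, Ndc1, Fam111a, Cmc2 and 4930579G24Rik completed the 12 highest, with ratios between 3.01 and 3.64.

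Contractile genes were lower in cycling mesenchyme. Of 28 contractile and cytoskeletal list genes compared, 14 were lower by 1.5-fold and 0 higher, with a median log2 ratio of -0.59 against -0.06 over all genes. Tagln was at 493 CPM (477 to 508) in cycling and 1218 CPM (1193 to 1244) in non-cycling cells, a ratio of 0.40 (0.39 to 0.42). The median cell held 111 CPM against 596 CPM. The upper 10% of cells began at 1490 CPM in the cycling and 3235 CPM in the non-cycling arm, so the arms overlapped widely from cell to cell.

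Acta2, the gene of the reporter used for the sort, was at 1875 CPM (1845 to 1906) against 3517 CPM (3475 to 3560), a ratio of 0.53. The ratios of smooth muscle genes were lower still. The ratio was 0.41 for Myh11, the smooth muscle myosin heavy chain, 0.41 for Actg2, the enteric smooth muscle actin, and 0.38 for both Cnn1, the actin regulator calponin, and Lmod1, a nucleator of smooth muscle actin. Since Acta2 is also the basis of the sort, cells below the GFP gate were not sampled in either arm.

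Part of that contrast followed the types. When mesenchymal cells were paired on depth within the same type class, the log2 ratio of Tagln was -0.97 in place of -1.31, that of Acta2 -0.60 in place of -0.91 and that of Myh11 -0.78 in place of -1.29. The total of lower genes was then 115 in place of 219, and that of higher genes 145 in place of 156. Of the 14 myofibroblast list genes 10 were lower and 1, the chemokine gene Cxcl14, higher, and in pericyte-type cells 7 of 11 were lower and 0 higher. With pairing within type the log2 ratio of the growth factor gene Igf1 was -0.30 in place of -0.87 and of the matrix protein gene Tgfbi -0.30 in place of -0.85. For the hedgehog inhibitor gene Hhip it was -0.28 in place of -0.83 and for the endothelin receptor gene Ednrb -0.39 in place of -0.94. Hhip and Ednrb are genes of the gate that set the classes, so pairing within them brought these ratios closer to equality by design.

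Inside pericyte-type cells 7 of 26 contractile list genes were lower and 1, the integrin gene Itga8, higher. Tagln was at 339 CPM (322 to 356) in cycling and 682 CPM (659 to 706) in non-cycling pericyte-type cells, a ratio of 0.50 (0.47 to 0.53). Acta2 was at 1426 CPM against 2266 CPM, a log2 ratio of -0.67 that was -0.52 without pairing on depth, Actg2 at 135 CPM against 224 CPM and Myh11 at 34.0 CPM against 60.2 CPM. The other types, taken as cells that passed that gate alone, had fewer pairs. In myofibroblast-type cells (80 pairs) Tagln was at 1070 CPM against 1861 CPM, a ratio of 0.57 (0.54 to 0.62), and in matrix fibroblast-type cells (43 pairs) at 56.4 CPM against 192 CPM, a ratio of 0.29 (0.19 to 0.44). Tagln was thus lower in the cycling arm of each of the 3 types, at levels that differed between types more than between arms.

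The smaller comparisons called more genes. In myofibroblast-type cells 406 of 5622 genes were higher (7.22%) and 483 lower (8.59%), and in matrix fibroblast-type cells 641 of 5440 (11.8%) and 784 (14.4%). Against that background, 8 of 29 contractile list genes were lower in the former and 7 of 21 in the latter, where 1 was higher.

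Pericyte identity genes stayed within 1.5-fold between the arms. None of 13 pericyte list genes outside the gate passed 1.5-fold inside pericyte-type cells, and the median log2 ratio was -0.04 against -0.05 over all genes. Of the gate genes, which chose these cells, Cox4i2 and Ndufa4l2 had ratios of 0.97 and 1.00. Kcnj8 was at 221 CPM (208 to 235) against 261 CPM (246 to 277), a ratio of 0.85 (0.78 to 0.92). Higd1b was at 861 CPM (834 to 889) against 737 CPM (711 to 763), and the receptor gene Pdgfrb at 413 CPM (393 to 432) against 367 CPM (348 to 386). Rgs5, a brake on G protein signalling in mural cells, was at 126 CPM (116 to 136) against 177 CPM (164 to 190), the lowest ratio of the list at 0.71. Gucy1a3, a subunit of the nitric oxide receptor, had a ratio of 1.12.

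**Figure D3:**
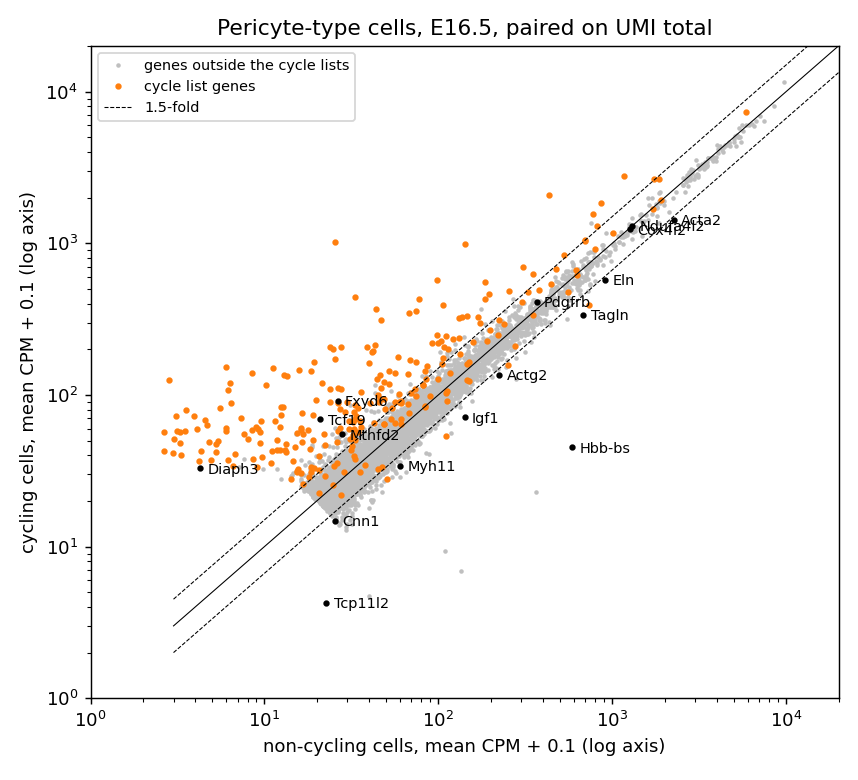
Mean CPM + 0.1 in cycling (y axis) against non-cycling (x axis) pericyte-type cells, 292 pairs, both axes on a log scale; each point is 1 gene, orange for cell cycle list genes, and dashed lines mark 1.5-fold. Pericyte genes such as Cox4i2 and Ndufa4l2 lie on the diagonal, while Tagln at 339 against 682 CPM, Eln and Acta2 lie at or below the lower line and Fxyd6, Tcf19 and Diaph3 above the upper line.

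Elastic fibre and collagen genes leaned lower in cycling cells. In the mesenchyme 0 of 16 elastic fibre list genes passed 1.5-fold, with 13 below equality and a median log2 ratio of -0.34, and inside pericyte-type cells Eln, Fbln5, Mfap4 and Loxl1 of 14 were lower. Eln, the gene of elastin, was at 572 CPM (549 to 595) in cycling and 911 CPM (882 to 940) in non-cycling pericyte-type cells, and 5% of the non-cycling cells held 51.1% of its summed CPM. Loxl1, an elastin cross-linking enzyme gene, had a ratio of 0.45 (0.34 to 0.59) and Fbln5, an elastic fibre assembly gene, at 31.0 CPM against 65.0 CPM. These calls depended on the cells taken. With the rule on cells thinned to 5000 UMIs the log2 ratio in pericyte-type cells was -0.42 in place of -0.67 for Eln, -0.56 in place of -1.07 for Fbln5 and 0.0389 in place of -0.61 for Mfap4, all inside 1.5-fold, and -0.82 in place of -1.15 for Loxl1. With a gate of 2 of 4 markers it was -0.47 for both Eln and Loxl1 and -0.54 for Mfap4. It was -0.48 for Eln within Xist-positive cells and -0.33 for Mfap4 without cells of more than 1 gate. The collagen genes Col1a1 and Col1a2 both had a ratio of 0.75 in pericyte-type cells and 0.76 in the mesenchyme, inside the 1.5-fold limits.

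Other signal and matrix genes were lower in pericyte-type cycling cells as well. Some of these ratios depended on cells that passed another gate. Cells passing more than 1 gate made up 6.51% of the cycling and 13.4% of the non-cycling pericyte-type pairs, and the myofibroblast-type gate took 4.79% and 10.96%. Without cells of more than 1 gate, the log2 ratio was -0.05 in place of -1.06 for Ednrb and -0.09 in place of -1.62 for the Wnt inhibitor gene Wif1. For the receptor gene Pdgfra it was 0.95 in place of -0.84. The log2 ratio moved the other way for Hhip, at -1.90 in place of -1.10, and for Sfrp2, at -1.34 in place of -0.91. That of Tagln was -0.97 in place of -1.01, of Eln -0.64 in place of -0.67, of Loxl1 -0.96 in place of -1.15 and of Igf1 -1.09 in place of -0.99. This left-out group was chosen after the values were seen. Ednrb, Wif1 and Hhip belong to the myofibroblast-type gate, so leaving out cells that passed it removed UMIs of these genes by choice. Their values therefore cannot show where the difference lay.

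Tcp11l2, a gene of little known function, was among the lowest in the mesenchyme, at 8.12 CPM (6.16 to 10.49) in cycling and 33.9 CPM (29.7 to 38.5) in non-cycling cells. No cell held more than 1.73% of its non-cycling UMIs. Below the 20 CPM limit of the comparison, it was at 4.17 CPM (2.51 to 6.52) in cycling and 22.6 CPM (18.3 to 27.7) in non-cycling pericyte-type cells, a ratio of 0.18 (0.11 to 0.30). Ddit4, an inhibitor of mTORC1 induced by stress, was at 14.03 CPM against 31.6 CPM, and the thromboxane receptor gene Tbxa2r at 12.7 CPM against 29.5 CPM in pericyte-type cells. Clu, Mpped2, Mustn1 and Fbxl22 were among the lowest in the mesenchyme, with ratios of 0.21, 0.30, 0.30 and 0.18. In that order, 5% of the non-cycling cells held 77.7%, 53.0%, 51.8% and 72.8% of their summed CPM. With pairing within type the log2 ratio of Clu was -1.27 in place of -2.28. In the E17.5 lungs Clu did not pass (-0.43 ± 0.31; limma, adjusted p = 0.541).

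The lowest ratios of all belonged to haemoglobin and heart muscle genes and came from few cells. The summed erythroid list was at 88 CPM in cycling and 4273 CPM in non-cycling mesenchyme, where 1 cell held 40.1% of the Hbb-bs UMIs, and 95.3% in pericyte-type cells. The summed cardiac muscle list was at 18.5 CPM against 233 CPM, and 1 cell held 98.4% of the Myl7 UMIs. Reads of the haemoglobin genes may be shared between their near-identical copies. With cells of the cardiac gate, with Ptprc or with over 1% erythroid UMIs left out, the counts of the mesenchyme were 149 higher and 213 lower, and the log2 ratio of Hbb-bs was 0.10. Actc1, the cardiac actin gene, stayed low, at -2.78 in place of -3.42, and in pericyte-type cells it was at -3.12 either way. In the mesenchyme 5% of the non-cycling cells held 92.7% of its summed CPM. Of other lists, the summed immune genes were at 39.9 CPM against 87.7 CPM, endothelial at 131 CPM against 178 CPM, epithelial at 39.4 CPM against 41.6 CPM and mesothelial at 8.88 CPM against 22.3 CPM. Epcam and Pecam1 were at 0 by the rule, and none of the immune or mesothelial genes reached the 20 CPM needed to be compared.

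Among genes of growth, splicing and nucleotide supply stood apart from ribosomal proteins. Of 60 splicing and RNA binding genes, 7 were higher and 0 lower in the mesenchyme, with 51 above equality and a median log2 ratio of 0.23. In pericyte-type cells 6 of 60 were higher, with a median of 0.21. Lsm3, of the ring that binds spliceosomal U6 RNA, was at 190 CPM (178 to 203) against 111 CPM (102 to 122) in pericyte-type cells, and Snrpd1, a core protein of spliceosomal particles, at 428 CPM against 270 CPM. The mRNA export adaptor gene Alyref was at 198 CPM against 125 CPM. With the rule on thinned cells the log2 ratios in pericyte-type cells were 0.54 for Lsm3, 0.49 for Snrpd1 and 0.52 for Alyref, just inside 1.5-fold.

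Nucleotide and one-carbon genes gave 4 of 28 higher in the mesenchyme and 5 of 28 in pericyte-type cells. Mthfd2, of mitochondrial one-carbon metabolism, was at 50.2 CPM against 20.6 CPM in the mesenchyme, a ratio of 2.44 (2.02 to 2.95), and had a ratio of 1.96 (1.58 to 2.45) in pericyte-type cells. In the mesenchyme Psat1, of serine synthesis, was at 60.1 CPM against 32.0 CPM, and the thymidylate kinase gene Dtymk at 228 CPM against 126 CPM. Glycolytic genes leaned lower, with 11 of 12 below equality and 0 past 1.5-fold in the mesenchyme, and 10 of 12 and 0 in pericyte-type cells. In the mesenchyme Aldoa was at 347 CPM against 488 CPM. None of 82 ribosomal protein genes passed 1.5-fold in either comparison, and their log2 ratios in the mesenchyme ran from -0.23 to 0.16. Eef2, the translation elongation factor gene, was at 1630 CPM against 2184 CPM.

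Some genes of the signal lists and of the transcription factors passed 1.5-fold. Of the hedgehog list 1 of 6 was lower in the mesenchyme, of FGF 1 of 7, of Wnt 3 of 13, and of Notch 0 of 7. In pericyte-type cells the counts were 1 of 4, 0 of 8, 1 of 12 and 0 of 8. Over all genes compared, 4.01% were lower and 2.85% higher in the mesenchyme, and 3.33% and 2.40% in pericyte-type cells. The hedgehog and Wnt shares lay above that of all genes in both comparisons, and that of FGF in the mesenchyme, in short lists. The hedgehog gene was Hhip in both comparisons and the FGF gene Fgf18, and Wif1 was the lowest Wnt gene in the mesenchyme. All are genes of the myofibroblast-type gate. With pairing within type, which brings gate genes closer to equality by design, their log2 ratios in the mesenchyme were -0.28, -0.22 and -0.37. That of Sfrp2, the Wnt gene lower in pericyte-type cells, was -0.42 in place of -0.91. Of the TGF-beta and BMP list 2 of 22 were lower and 1 higher, the BMP target Id1 at 170 CPM (161 to 179) against 112 CPM (105 to 120) in the mesenchyme and at 193 CPM against 149 CPM in pericyte-type cells. Inside pericyte-type cells, the transforming growth factor genes Tgfb2 and Tgfb3 had ratios of 0.69 and 0.56. Of 40 mesenchymal transcription factor genes there, 2 were higher. These were Tbx4, the lineage gene of the sort, at 48.5 CPM (42.0 to 55.7) against 29.5 CPM (24.5 to 35.2), and the orphan receptor gene Nr2f1, at 76.7 CPM (68.9 to 85.2) against 50.8 CPM (44.2 to 58.1). Without pairing on depth their log2 ratios were 0.37 in place of 0.72 and 0.48 in place of 0.59. Over all mesenchyme Tbx4 had a ratio of 1.20, and Tcf21, a fibroblast transcription factor gene, 1.58, which with pairing within type was a log2 ratio of 0.23 in place of 0.66.

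**Figure D4:**
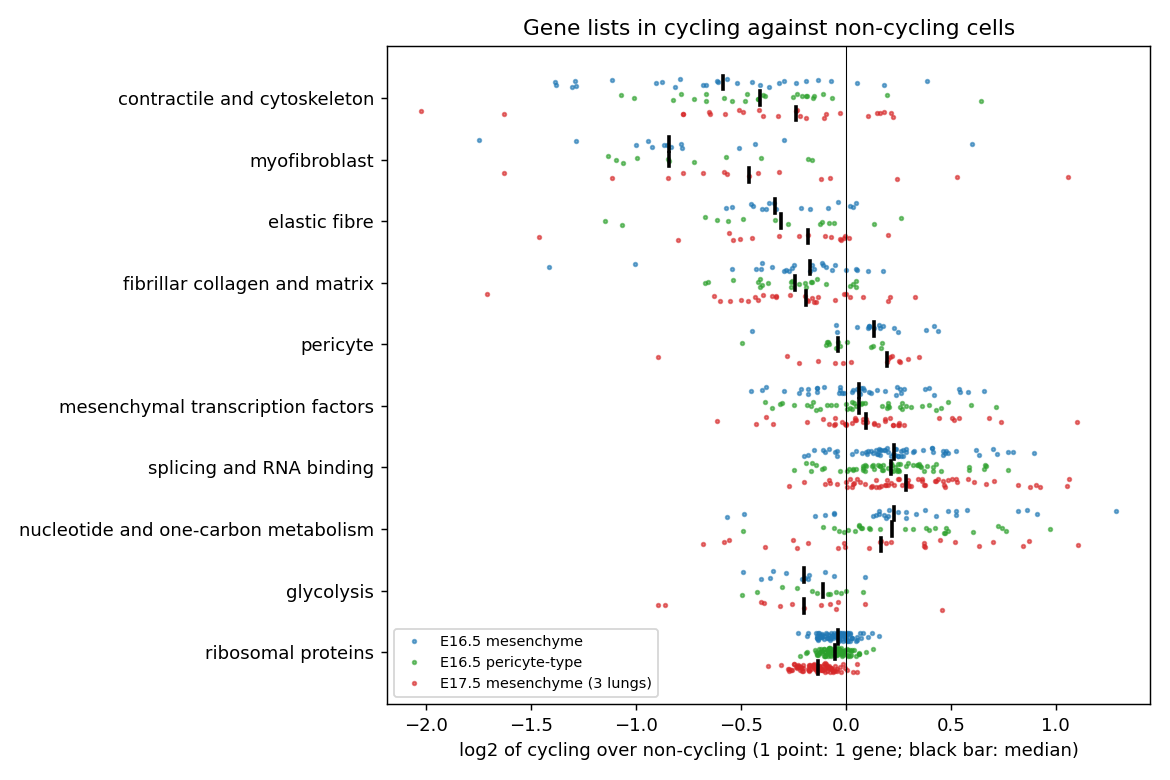
log2 ratio of cycling over non-cycling cells (x axis) for the genes of 10 lists, in the E16.5 mesenchyme (523 pairs), E16.5 pericyte-type cells (292 pairs) and the E17.5 mesenchyme of 3 lungs; each point is 1 gene and the black bar the list's median. The contractile medians lie at -0.59, -0.41 and -0.24, the splicing medians at 0.23, 0.21 and 0.29, and the ribosomal protein genes lie close to 0.

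The cells of the E17.5 lungs were divided by the same rule of Mki67 and Top2a UMIs, and the genes tested there exclude the cell cycle lists. Mesenchymal cells there were those with no UMI of Epcam, Pecam1 or Ptprc and 10 or more UMIs of Col1a2, Col3a1, Mfap4 and Pdgfrb together, a gate without the reporter sort. They numbered 597, 444 and 498 in lungs 1, 2 and 3, of which 49 (8.21%), 29 (6.53%) and 44 (8.84%) cycled. These shares cannot be set against that of the sort, because the stage, the sort and the depth differed together. Pairing on depth left 46, 26 and 39 pairs. Between 46.2% and 65.4% of cells in each arm passed the matrix fibroblast-type gate and 7.69% to 19.6% the pericyte-type gate, so this mesenchyme was of another make-up than the sort.

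By limma with the lung as block and Benjamini-Hochberg adjustment, 74 of 5478 genes were higher in cycling cells (1.35%) and 81 lower (1.48%) at an adjusted p under 0.05. Without lung 1 the counts were 43 and 75, without lung 2 33 and 35, and without lung 3 48 and 53. The sort and the lungs share no cells, so the sort's genes could be followed in the lungs. Of the 156 genes higher in the sorted mesenchyme, 129 were tested in the lungs, 122 were higher there and 46 were called higher, or 35.7% against 1.48% of all genes tested in both. Of the 219 lower genes, 165 were tested, 141 were lower and 14 were called lower, or 8.48% against 1.46%. Of the sort's 156 and 219 genes, 0 were called in the opposite direction by limma.

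Tagln gave the smallest adjusted p of all genes tested in the lungs. It was at 130 CPM in cycling and 490 CPM in non-cycling cells of lung 1, 104 and 722 CPM in lung 2, and 280 and 836 CPM in lung 3. The lowest non-cycling value lay above the highest cycling value. Its log2 difference was -2.02 ± 0.17 (SE moderated over genes by limma, as for all SEs below, n = 3 lungs, limma adjusted p = 9.65e-07). It kept its call without each lung in turn. Acta2 fell in each lung but by unequal amounts, with 745 and 1266 CPM, 519 and 1407 CPM, and 1378 and 1529 CPM, a log2 difference of -0.78 ± 0.15 (limma, adjusted p = 0.00589), and without lung 2 the adjusted p was 0.125. Actg2 was at 18.05 and 94.8 CPM, 8.57 and 133 CPM, and 114 and 118 CPM, so lung 3 hardly differed. Its log2 difference was -1.63 ± 0.35, with an adjusted p of 0.0131 by limma and of 0.238 without lung 2.

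Of 25 contractile list genes tested in the lungs, 6 were called lower and 0 higher, where 1.48% of all genes tested were called lower. The 6 were Acta2, Actg2, Fhl1, Myl6, Myl9 and Tagln. The median log2 difference of the list was -0.24 against -0.02 over all genes. Myh11 was lower in 3 of 3 lungs but did not pass, with a log2 difference of -0.49 ± 0.25 (limma, adjusted p = 0.364). Of 15 pericyte list genes 0 passed, at an adjusted p under 0.05 by limma, and Higd1b, higher in 1 of 3 lungs, had a log2 difference of 0.25 ± 0.20 (limma, adjusted p = 0.600). Of the myofibroblast genes that were low in the sorted cycling cells, Hhip (-0.07 ± 0.19), Igf1 (-0.12 ± 0.16) and Ednrb (-0.32 ± 0.25, log2 difference ± SE) did not pass, with limma adjusted p from 0.598 to 0.897. Without lung 1, Ednrb passed with a log2 difference of -0.80 (limma, adjusted p = 0.0390). Tgfbi, lower in the cycling arms of lungs 2 and 3 but higher in that of lung 1, did not pass (-0.68 ± 0.28; limma, adjusted p = 0.220). It passed without lung 1 (-1.43; limma, adjusted p = 5.99e-08) and with a mesenchyme gate of 20 UMIs (-1.02; 0.0342). Without pairing on depth, where the arms differ in depth, Hhip (-1.07; adjusted p = 2.86e-06), Igf1 (-0.92; 2.07e-07) and Ednrb (-0.87; 4.00e-05) all passed by limma, as did Higd1b (0.82; 0.000486) and Myh11 (-0.90; 0.000579).

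**Figure D5:**
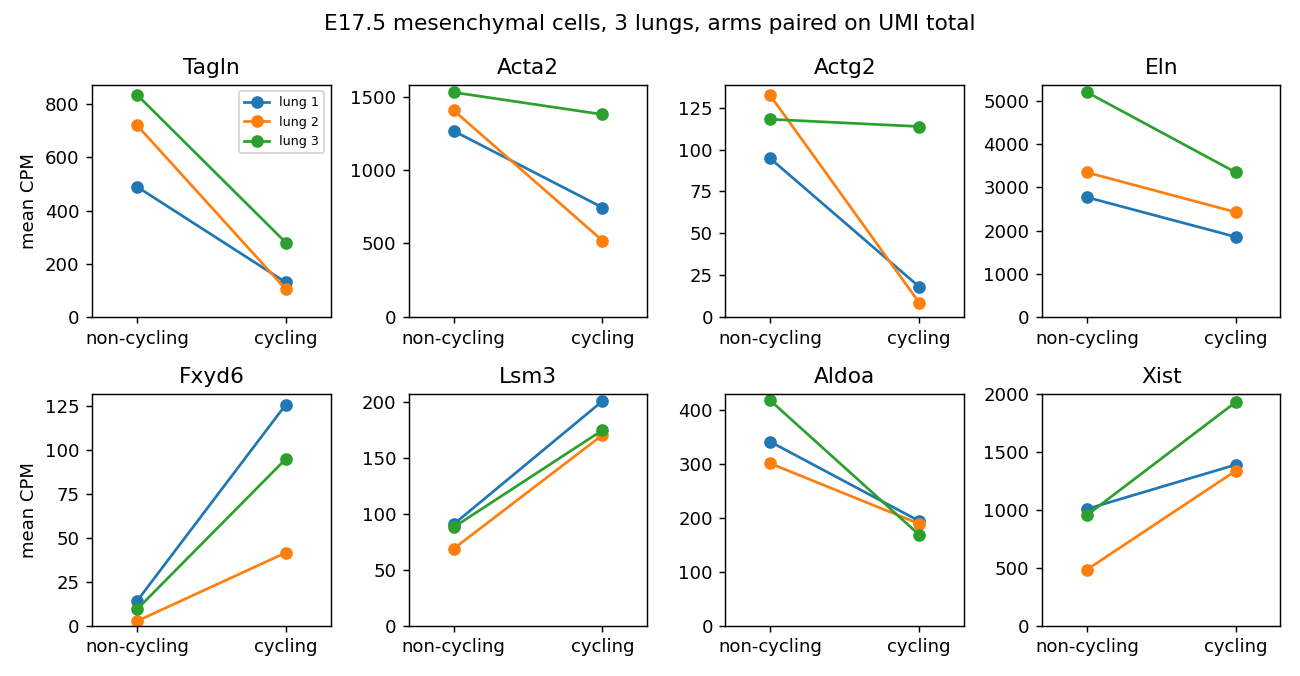
Mean CPM (y axes) of 8 genes in paired non-cycling and cycling mesenchymal cells of 3 E17.5 lungs, 1 line per lung. Tagln, Acta2, Actg2, Eln and Aldoa are lower and Fxyd6, Lsm3 and Xist higher in the cycling arm of each lung, with Actg2 of lung 3 nearly level at 114 against 118 CPM.

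A minority of matrix genes fell in the E17.5 cycling cells, with 3 of 17 elastic fibre genes, 6 of 28 fibrillar collagen and matrix genes and 0 of 12 basement membrane genes called lower by limma, and 0 called higher. Over all genes tested, 1.48% were called lower and 1.35% higher. Eln was at 1855 CPM in cycling and 2774 CPM in non-cycling cells of lung 1, 2428 and 3350 CPM in lung 2, and 3350 and 5209 CPM in lung 3. The lungs differed as much as the arms, yet the fall was alike in each, with a log2 difference of -0.56 ± 0.07 (SE, n = 3; limma, adjusted p = 0.000146). Without the lung as block its adjusted p by limma was 0.183, and with a mesenchyme gate of 20 UMIs 0.0993. Fbln5 was at 25.9 and 79.6 CPM, 57.4 and 139 CPM, and 81.9 and 337 CPM, a log2 difference of -1.46 ± 0.21. Ogn, a small leucine-rich proteoglycan gene, was at 42.4 and 158 CPM, 45.8 and 81.5 CPM, and 34.2 and 284 CPM, a log2 difference of -1.71 ± 0.27. The 6 collagen and matrix genes were Col1a1, Col1a2, Col3a1, Ogn, Serpinh1 and Sparc. Of these, Col1a1 was called no longer without lung 2 (limma, adjusted p = 0.0848) or lung 3 (0.0591), and Col1a2 without lung 3 (0.180). The gate used Col1a2, Col3a1 and Mfap4, so cells low in all of these were left out of both arms.

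Some splicing genes rose in the lungs. Of 61 tested, 10 were called higher and 0 lower, where 1.35% of all genes tested were called higher. The median log2 difference of the list was 0.29. Lsm3 was at 201 and 90.7 CPM, 171 and 68.8 CPM, and 175 and 88.1 CPM in cycling and non-cycling cells of lungs 1, 2 and 3, a log2 difference of 1.06 ± 0.18 (limma, adjusted p = 0.00205). Fxyd6 was at 126 and 13.9 CPM, 41.5 and 2.56 CPM, and 94.8 and 9.23 CPM, a log2 difference of 2.33 ± 0.28 (limma, adjusted p = 0.000125). Both kept their call without each lung in turn, and the arms did not overlap for either gene. Dtymk, in lungs at 160 to 229 CPM against 73.9 to 89.0 CPM, rose by 1.11 ± 0.18 on the log2 scale and Tcf19 by 1.94 ± 0.26, while Mthfd2, higher in 3 of 3 lungs, did not pass (0.84 ± 0.31; limma, adjusted p = 0.161), though it did without pairing on depth (1.13; adjusted p = 0.000827).

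Of the 12 genes highest in sorted cycling mesenchyme, 8 could be tested in the lungs, and each was higher in 3 of 3. Fxyd6, Tcf19, C330027C09Rik, Cmc2, Trim59, Terf1 and 4930579G24Rik passed, and Cep295 did not (limma, adjusted p = 0.0558), but it did with edgeR (adjusted p = 0.0416). C330027C09Rik was at 56.0 and 1.04 CPM, 46.0 and 2.34 CPM, and 52.6 and 4.57 CPM, a log2 difference of 2.29 ± 0.33 (limma, adjusted p = 0.000463). Trim59 was called no longer without lung 2 (limma, adjusted p = 0.135), and Terf1 (0.0509 to 0.147) and 4930579G24Rik (0.0961 to 0.241) whichever lung was left out. Rad18, below the limit of the test, was at 29.5 and 3.51 CPM, 10.49 and 2.23 CPM, and 30.1 and 2.09 CPM.

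Ribosomal protein genes, within 1.5-fold in the sort, gave 7 calls of 82 in the lungs, all lower, where 1.48% of all genes tested were called lower. The change was small, as for Rpl10, at 4224 and 5251 CPM, 4385 and 5351 CPM, and 4172 and 5238 CPM, a log2 difference of -0.31 ± 0.06 (limma, adjusted p = 0.00589, and 0.142 without lung 3). In the sort Rpl10 had a ratio of 0.85 (0.84 to 0.87). Aldoa fell, at 194 and 341 CPM, 189 and 301 CPM, and 168 and 417 CPM, and Hk2 was the other glycolytic gene called of 13. Tcp11l2 was at 18.4 and 74.3 CPM, 26.1 and 63.9 CPM, and 16.9 and 82.8 CPM, a log2 difference of -1.47 ± 0.26 (limma, adjusted p = 0.00338). Its arms did not overlap, and it kept its call without each lung in turn. Ddit4, by contrast, had 46.4 and 62.9 CPM, 47.1 and 65.8 CPM, and 60.7 and 61.9 CPM and did not pass (limma, adjusted p = 0.633), but without pairing on depth it did (-0.87; adjusted p = 0.000317).

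Transcripts of other cell types were present in both E17.5 arms. The summed epithelial list ran from 1974 to 2613 CPM in the cycling and from 2001 to 3580 CPM in the non-cycling arms, and the immune list from 315 to 621 CPM and from 333 to 656 CPM. The erythroid list ran from 30.6 to 129 CPM and from 3.29 to 39.1 CPM, and no erythroid gene reached the level needed for the test. Epithelial transcripts were thus far above those of the sort in both arms although each cell had 0 Epcam UMIs, and their part in these results was not tested.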

How the data were processed

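Droplet-type single-cell RNA libraries were analysed, 1 of cells sorted at E16.5 and 3 of live lung cells at E17.5. The submitters' processing notes name Seurat 3.0.0 and Cell Ranger 1.3.1 without their roles, and the build of the files was not given in the sources used here. As deposited, the signal values are linear expression per gene and cell that the authors scaled to 1 total in every cell of a library. Division of a cell's values by the smallest of them above 0 gave whole numbers (100% of values within 0.01), so UMI counts were recovered by that division and CPM computed from them. The sort held 18269 genes, a median of 12007 UMIs per cell (3000 to 106746) and 41038008 UMIs in all, and the lungs 2682, 2140 and 2657 cells with medians of 7979, 8493.5 and 7201 UMIs.

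Each cycling cell, deepest first, was paired with 1 unused non-cycling cell within 1.1 times its UMI total. Levels are means of per-cell CPM, and their exact 95% Poisson intervals, the exact binomial intervals of ratios and the Clopper-Pearson intervals of shares cover counting error only. With 1 sorted sample no test was made at E16.5. In the lungs, limma 3.58.1 with trend was fitted to log2(mean CPM + 10) of the 6 arms over genes with a mean of 20 CPM or more, with the lung as block because both arms come from the same lung, and Benjamini-Hochberg adjustment at 0.05. Fold changes of low genes are understated on that scale. The SEs and p-values are moderated, so each gene's variance was drawn toward that of genes of like level. The prior had 17.78 degrees of freedom and the residual 2, so they rest largely on variance shared over genes. They are not the spread of 1 gene between the lungs. Nothing states whether the lungs are from separate litters, and the p-values speak only for these 3. Deviations of the arms correlated at 0.02, 0.05 and 0.11 within lungs 1, 2 and 3. edgeR 4.0.16 on summed UMIs, which the recovery made possible, was an alternative and called 76 genes higher and 66 lower.

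Named genes had 100 or more UMIs over both arms and were the 12 with the largest and the 12 with the smallest ratio in the mesenchyme, the 8 each way in pericyte-type cells, the 3 of each list farthest from equality, the 5 largest of each cycle list, and the genes of the rule and gates. Genes named beyond this, such as the G1 cyclins and genes set beside them, were chosen after their values were seen. The members and gene lists were chosen with earlier results of these data known. Doublets (31 of 3085 sorted cells called by scanpy 1.11.5) stayed in, with an alternative without them. On simulated data the E17.5 test found 48.5% of 97 genes changed 2-fold and 97.0% of 100 changed 4-fold, with 3 false among 147 calls over 5433 genes. The sort comparison found 99.5% of 200 genes changed 2-fold in the mesenchyme and 99% in pericyte-type cells, with 0 of 5284 and 11 of 5109 unchanged genes past 1.5-fold. The simulated sort held only counting noise around the mean profile of the paired non-cycling cells, without spread between cells or types. It therefore cannot give the share of false calls among the real cells. Promoters are RefSeq entries on GRCm38.p6. R 4.3.3, matplotlib 3.10.9, scipy 1.17.1, pandas 2.3.3, numpy 2.4.6 and Python 3.11.15 were used.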

Additional observations from a re-analysis of the deposited data

Results flagged for a closer look

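Nkd1, an inhibitor of Wnt signalling, went one way in the sort and the other way in the lungs. In the E16.5 mesenchyme it was at 70.3 CPM (64.6 to 76.5) in cycling and 124 CPM (116 to 132) in non-cycling cells, a log2 ratio of -0.82. In the E17.5 lungs it was at 102 and 81.6 CPM, 99.2 and 93.9 CPM, and 86.5 and 70.8 CPM in cycling and non-cycling cells of lungs 1, 2 and 3, higher in 3 of 3 lungs, with a log2 difference of 0.20 ± 0.20 (limma, adjusted p = 0.681). The difference between the stages was not tested. With cells of the sort paired within their type class its log2 ratio was -0.27, and it was 0.92 as a ratio within myofibroblast-type cells, where its level was 226 CPM against 245 CPM.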

How the results depend on the processing

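At E16.5 the counts of genes higher and lower in cycling mesenchyme, 156 and 219, were 273 and 519 without pairing on depth, 103 and 105 with 10 CPM added, 54 and 75 among genes of 50 CPM or more, 437 and 730 from 5 CPM (more genes compared), 238 and 345 with cycling called from 4 UMIs, 90 and 76 with the rule on cells thinned to 5000 UMIs, 278 and 526 without the 25% of non-cycling cells with most cycle list CPM, and 474 and 694 in Y-positive cells (55 pairs). Pairing within type classes left 115 lower genes. In pericyte-type cells 126 and 175 were 72 and 67, 43 and 51, 436 and 756, 214 and 329, 67 and 91, 191 and 301 and, with 25 pairs, 679 and 815 under the same settings in that order, from the added 10 CPM on. CPM over genes outside the cycle lists gave 206 and 175 in the mesenchyme and 179 and 136 in pericyte-type cells, so the larger direction turned with the scaling, while doublets or cells over 10% mitochondrial UMIs left out moved no count by 1.5 times. Among the named genes past 1.5-fold, log2 ratios that reversed were those of Tcf21 without pairing (-0.13) and, with other cell types left out, of Myl7 (0.0154), Hba-a2 (0.13) and Hbb-bs (0.10) in the mesenchyme and of Hbb-bt (0.12), Hba-a2 (0.30) and Hbb-bs (0.14) in pericyte-type cells, where the cells that held these UMIs were gone. In Y-positive cells Hbb-bs reversed in the mesenchyme (0.13), and in pericyte-type cells Cep295 (-0.41), 4930579G24Rik (-0.35), Hbb-bt (0.80), Hba-a2 (0.94), Hbb-bs (0.55) and Zfp36 (0.70). In pericyte-type cells Mfap4 reversed on thinned cells (0.0389), Myl7 (0.86), Clu (0.13) and Ndnf (1.16) under a gate of 4 of 4 markers, and Pdgfra (0.95) and Robo2 (0.0493) without cells of more than 1 gate. Some ratios inside 1.5-fold changed sign too, such as those of Fbln5 (-0.44 to 0.90) in Y-positive cells and Mfap4 (-0.17 to 0.33) from 4 UMIs in the mesenchyme. Except where cells or genes were left out, the cause was not tested. Leaving out cells of more than 1 gate, or with exactly 2 UMIs of the rule genes, was chosen after seeing the data.

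In the E17.5 lungs 74 genes were higher and 81 lower, with 396 and 455 at an unadjusted p under 0.05. Without each lung in turn 33 to 48 were higher and 35 to 75 lower. Without the lung as block, which ignores the pairing of arms within a lung, 41 were higher and 28 lower. A filter of 50 CPM left 44 higher, a gate of 20 UMIs 49 lower, and no pairing on depth gave 381 and 512. Acta2 lost its call without the block (limma, adjusted p = 0.0990) and Actg2 with edgeR (adjusted p = 0.0559). The low cell numbers, 26 to 46 pairs a lung, limit genes near 20 CPM, of which an arm holds few UMIs.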

Other observations

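Xist, the RNA that silences the inactive X chromosome, belonged to no list and was picked out after its values were seen. In sorted mesenchyme it was at 1364 CPM (1338 to 1391) in cycling and 791 CPM (771 to 812) in non-cycling cells, a ratio of 1.72 (1.67 to 1.78), although the share of cells with Xist and no Y-linked UMI was 78.7% in the cycling and 80.9% in the non-cycling arm before pairing. Within Xist-positive cells, paired anew, the log2 ratio was 0.75 in place of 0.79. The ratio was 1.80 in pericyte-type, 1.31 in myofibroblast-type and 1.40 in matrix fibroblast-type cells. In the E17.5 lungs Xist was at 1391 and 1008 CPM, 1339 and 484 CPM, and 1932 and 955 CPM in cycling and non-cycling cells, higher in 3 of 3 lungs, with a log2 difference of 0.97 ± 0.13 (SE; limma, adjusted p = 0.000223).

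Ccnd2, which the cycle lists kept out of the lungs' test, was at 113 and 348 CPM, 109 and 314 CPM, and 131 and 390 CPM in cycling and non-cycling cells of lungs 1, 2 and 3, so the arms did not overlap. Diaph3 was below the level needed for the test there, at 45.5, 33.1 and 40.3 CPM in the cycling arms and listed at 0 UMIs in each non-cycling arm. Of the genes called higher in the lungs, 73 of 73 compared in the sorted mesenchyme had a ratio above 1 and 46 passed 1.5-fold. Of those called lower, 68 of 72 had a ratio below 1 and 14 passed 1.5-fold. Over all genes compared in the sorted mesenchyme, 2.85% passed 1.5-fold upward and 4.01% downward, and the median log2 ratio was -0.06.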
